A study of Homo sapiens with 9 samples.

Results

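The serine and one-carbon enzymes described here were 10 genes, PHGDH, PSAT1, PSPH, SHMT1, SHMT2, MTHFD1, MTHFD2, MTHFD1L, GLDC and AHCY, of 19775 genes measured. They were chosen by name, and every probe set that the platform annotation assigns to 1 of these symbols alone was used, which gave 19 of 54675 probe sets. The cells were P493-6, an established human B-lymphocyte line, measured on 9 Affymetrix arrays: 4 labelled high Myc, 3 labelled low Myc and 2 labelled no Myc. As background, MYC in this line is driven by a construct that tetracycline represses, and the line also holds an estrogen-dependent EBNA2, a viral transcription factor. The labels name no agent, dose or time for any group. All 9 arrays come from this 1 line, and nothing says whether replicates were separate cultures, so the p-values reflect array-to-array spread that may be technical.

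As background, cells make serine from the glycolytic intermediate 3-phosphoglycerate by the successive action of PHGDH, PSAT1 and PSPH. Serine hydroxymethyltransferases then split serine into glycine and a one-carbon unit carried on tetrahydrofolate, SHMT1 in the cytosol and SHMT2 in mitochondria. The MTHFD enzymes interconvert the folate-bound units, which are used for purines and thymidylate and for remethylating homocysteine, and proliferating lymphocytes draw on them for nucleotide synthesis. MYC and ATF4, a transcription factor of amino acid stress, are both known regulators of genes in this pathway.

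MYC itself was measured first as a check of the labels. Its intensities were 12755, 11326, 15404 and 12186 on the high Myc arrays, 2126, 2526 and 1443 on the low Myc arrays, and 2803 and 416 on the no Myc arrays. The 2803 belongs to the library labelled no Myc replicate 1, which read above every low Myc array, so MYC did not separate low Myc from no Myc (difference 0.87 on the log2 scale, adjusted p = 0.484; 2.25 and 0.00842 when that library was left out). The same library stood below every low Myc array for 8 of the 10 enzymes, and below no Myc replicate 2 for 6 of them. Some of the results that depend on it are named below. Array medians lay between 75.3 and 80.3, with 3 arrays (high Myc 2 and 3, low Myc 2) at 75.3 to 76.1 and the other 6, both no Myc arrays among them, at 78.6 or more. All 10 measured B-cell identity genes read above the array median on every array.

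Against no Myc, 8 of the 10 enzymes rose in high Myc cells and the other 2 were not called, where 14.2% of all genes rose (limma, Benjamini-Hochberg adjusted p under 0.05). The 8 were PHGDH, PSAT1, PSPH, SHMT2, MTHFD1, MTHFD2, GLDC and AHCY, and the median difference over the 10 was 1.55 on the log2 scale, against -0.01 over all genes. In low Myc cells 6 of the 10 rose against no Myc and the other 4 were not called, where 11.3% of all genes rose; PSPH and GLDC were the enzymes called in high Myc cells that were not called here, and the median difference was 1.26 against 0.00 over all genes. High Myc cells exceeded low Myc cells for GLDC and AHCY, 2 of the 10, where 2.33% of all genes rose, and the other 8 were not called. The median difference was 0.08. SHMT1 and MTHFD1L passed the test in none of the comparisons. Their probe sets used here were dim, and others that join them with further symbols were left out. Neither enzyme is therefore shown to be unchanged. The comparisons share arrays, so their values for an enzyme are not independent of each other. In bulk RNA, a change in the share of cells in a given state and a change in RNA per cell cannot be told apart.

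**Figure D1:**
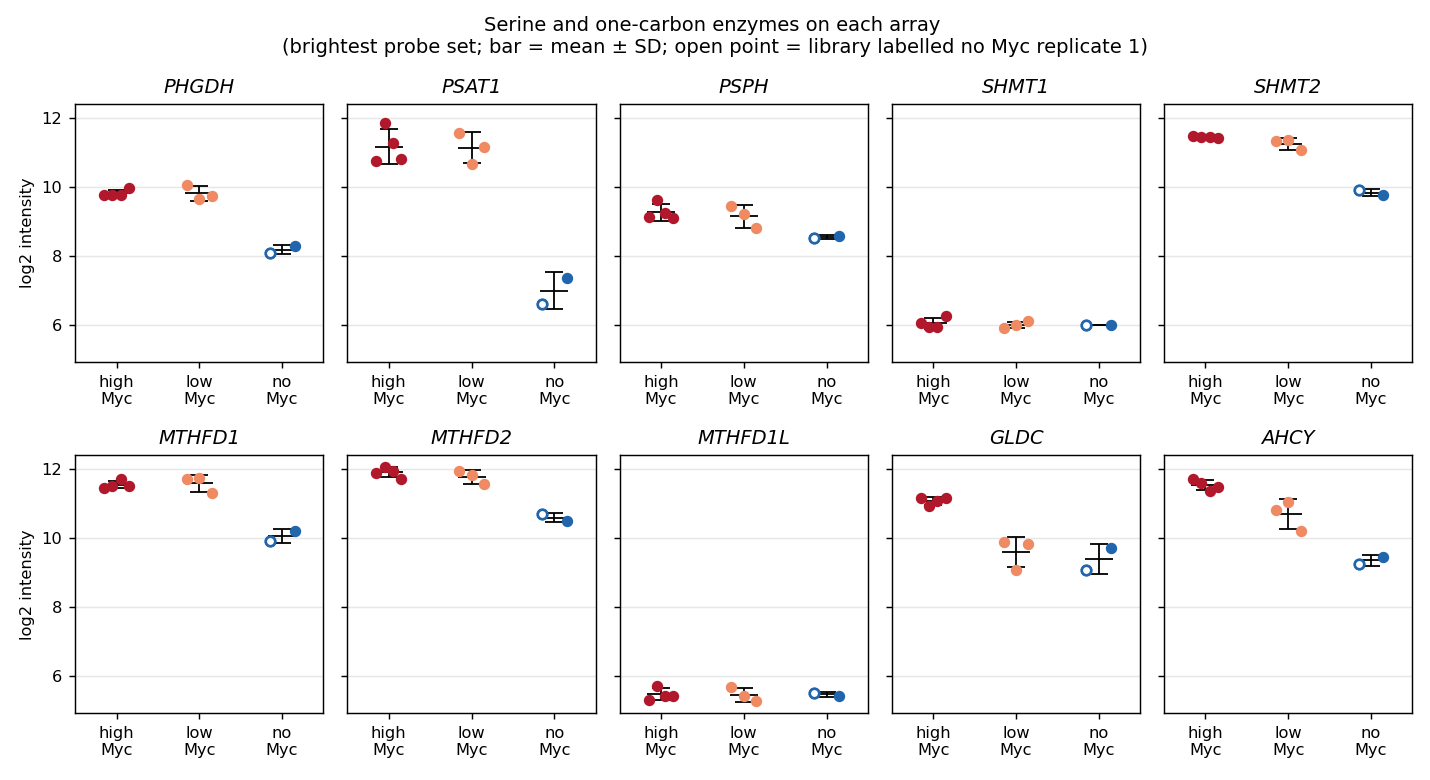
Log2 intensity of each enzyme's brightest probe set, 1 panel per gene, with 1 point per array and bars for the mean and SD of the high Myc (n = 4), low Myc (n = 3) and no Myc (n = 2) groups; the open point is the library labelled no Myc replicate 1. Both no Myc points lie below all others for 7 enzymes, while GLDC is high only on the high Myc arrays and the groups overlap for SHMT1 and MTHFD1L.

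In serine synthesis the middle step had the greatest difference. PSAT1, the aminotransferase that makes phosphoserine, read 1719, 3725, 2473 and 1798 in high Myc cells, 3031, 1640 and 2303 in low Myc cells, and 97.3 and 165 in no Myc cells. Both the high and low Myc groups lay entirely above no Myc and overlapped each other. The high Myc minus no Myc difference was 4.19 ± 0.36 on the log2 scale (SE; 18.3-fold, adjusted p = 0.000146), rank 2 of the 19775 genes by size among increases. The low Myc minus no Myc difference was 4.15 ± 0.38 (17.8-fold, adjusted p = 0.000405). High and low Myc differed by 0.04, with a 95% interval of -0.69 to 0.76. The other PSAT1 probe set gave smaller differences in the same direction, with 985 to 2893 in high Myc cells, 840 to 1943 in low Myc cells and 216 to 220 in no Myc cells. There the differences from no Myc were 2.64 ± 0.46 (6.23-fold, adjusted p = 0.00477) and 2.58 ± 0.48 (5.97-fold, adjusted p = 0.00885), so the fold depends on the probe set read while the call does not. The 100 bases before the RefSeq start of PSAT1 (GRCh38.p14, chr9:78297025-78297124, plus strand) are shown because it had the greatest difference among the enzymes. They hold neither motif searched below.
PSAT1: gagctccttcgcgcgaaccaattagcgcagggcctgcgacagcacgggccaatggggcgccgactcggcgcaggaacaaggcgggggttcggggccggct

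PHGDH, the dehydrogenase that commits 3-phosphoglycerate to serine, has 1 probe set assigned to it alone. It read 870, 878, 875 and 993 in high Myc cells, 1058, 800 and 858 in low Myc cells, and 271 and 309 in no Myc cells. The 7 high and low Myc arrays lay within a narrow band above both no Myc arrays. Against no Myc, PHGDH rose 3.12-fold in high Myc cells (log2 difference 1.64 ± 0.13, adjusted p = 0.000127) and 3.11-fold in low Myc cells (adjusted p = 0.00032). High and low Myc differed by 0.01 (95% interval -0.26 to 0.27).

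PSPH, the phosphatase of the last step, had the smallest difference of the 3. It read 560, 791, 605 and 544 in high Myc cells, 695, 590 and 445 in low Myc cells, and 366 and 383 in no Myc cells. Neither the high nor the low Myc group overlapped no Myc. The high Myc minus no Myc difference was 0.72 ± 0.20 (1.65-fold, adjusted p = 0.0274), and this call was lost without either no Myc array (adjusted p = 0.162 without replicate 1 and 0.110 without replicate 2) and without high Myc replicate 3 (adjusted p = 0.057). Within the 6 arrays of higher median it was 0.56 (adjusted p = 0.154). The low Myc minus no Myc difference of 0.60 ± 0.21 missed the threshold (adjusted p = 0.0817), although it passed without low Myc replicate 3 (0.77, adjusted p = 0.0191) and without high Myc replicate 2 (adjusted p = 0.0463). A dimmer PSPH probe set differed more, by 1.40 ± 0.30 for high Myc (adjusted p = 0.0123) and 1.34 ± 0.32 for low Myc (adjusted p = 0.023). The human genome holds a PSPH pseudogene, PSPHP1, so which copy these probes read is uncertain.

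Of the hydroxymethyltransferases, the mitochondrial SHMT2 rose in both comparisons with no Myc and the cytosolic SHMT1 was not called. SHMT2 read 2868, 2807, 2774 and 2734 in high Myc cells, 2580, 2662 and 2138 in low Myc cells, and 963 and 868 in no Myc cells. Its 4 high Myc values were the most tightly grouped of the 8 called enzymes, with an SD of 0.03 on the log2 scale. Against no Myc, SHMT2 rose 3.06-fold in high Myc cells (1.61 ± 0.11, adjusted p = 9.18e-05) and 2.68-fold in low Myc cells (1.42 ± 0.12, adjusted p = 0.00032). Every high Myc array exceeded every low Myc array, yet the difference of 0.19 ± 0.10 did not pass (adjusted p = 0.398). The other SHMT2 probe sets gave 1.91 and 1.88 for high Myc and 1.64 and 1.62 for low Myc, all called.

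SHMT1 read 66.9, 60.7, 60.9 and 76.0 in high Myc cells, 60.3, 63.1 and 68.5 in low Myc cells, and 63.1 and 63.1 in no Myc cells. The groups overlapped, and the 95% interval of the high Myc minus no Myc difference was -0.20 to 0.32. On 3 arrays SHMT1 had exactly the same value, which RMA's summary can give for dim probe sets: 22525 of the 54675 probe sets (41.2%) have a value repeated on other arrays, so an SD of 0 here is not a measure of precision. Both SHMT1 probe sets used were below the median of all probe sets, and a probe set this dim may not follow its transcript. Others that join SHMT1 with another symbol were left out. Within arrays, the log2 ratio of the SHMT2 to the SHMT1 reading was 1.55 higher in high Myc than no Myc cells, which restates the SHMT2 difference and carries nothing on SHMT1.

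Of the folate interconverting enzymes, the cytosolic trifunctional MTHFD1 and the mitochondrial MTHFD2 rose in both comparisons with no Myc. MTHFD1 read 2824, 2939, 3362 and 2957 in high Myc cells, 3378, 3470 and 2529 in low Myc cells, and 972 and 1189 in no Myc cells. Against no Myc it rose 2.80-fold in high Myc cells (1.49 ± 0.15, adjusted p = 0.000273) and 2.88-fold in low Myc cells (1.53 ± 0.16, adjusted p = 0.000584). Low and high Myc arrays overlapped, with a high minus low difference of -0.04 (95% interval -0.34 to 0.27).

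MTHFD2 read 3834, 4324, 3974 and 3380 in high Myc cells, 3970, 3689 and 3034 in low Myc cells, and 1659 and 1459 in no Myc cells. Both no Myc arrays lay below all others, and high and low Myc overlapped. The differences from no Myc were 1.31 ± 0.14 for high Myc (2.48-fold, adjusted p = 0.000326) and 1.19 ± 0.15 for low Myc (2.28-fold, adjusted p = 0.00104). A dimmer MTHFD2 probe set, of a type that may bind other transcripts, gave 1.22 ± 0.25 for high Myc (adjusted p = 0.0094) and 0.82 ± 0.26 for low Myc (adjusted p = 0.0729). The within-array log2 ratio of MTHFD2 to MTHFD1 differed by -0.18 for high Myc against no Myc (exact permutation p = 0.4) and by -0.34 for low Myc against no Myc (exact permutation p = 0.1, two-sided and the smallest that 3 against 2 arrays allow). Both signs turned with the median of each gene's probe sets (0.55 and 0.24). That median averages in the dim MTHFD1 probe set, which differed from no Myc by -0.05 in high Myc and 0.00 in low Myc cells. No direction is given for this ratio.

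MTHFD1L, the mitochondrial formate-releasing synthetase, read 40.0, 52.7, 43.0 and 43.0 in high Myc cells, 51.1, 43.0 and 38.9 in low Myc cells, and 46.1 and 43.0 in no Myc cells. The groups overlapped, and the 95% interval of the high Myc minus no Myc difference was -0.33 to 0.32. Like those of SHMT1, both MTHFD1L probe sets used were below the median of all probe sets, and 4 arrays share 1 value. Others that join MTHFD1L with further symbols were left out, so a response of MTHFD1L may have been missed.

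The probe sets divided by brightness, taken as the mean over the 9 arrays. Most of these arrays were high or low Myc, so a rise itself makes a probe set brighter. The dimmer called PSPH probe set read 78.95 and 65.46 on the no Myc arrays, under those arrays' medians of 80.01 and 80.25. The split and the calls are therefore not independent. The 13 of the 19 that lay above the median of all probe sets were all called higher in high Myc cells, against no Myc, with differences of 0.72 to 4.19, while the 6 below it were not called and differed by -0.10 to 0.19. Among all probe sets, bright and dim alike, 9.24% were called higher. For low Myc against no Myc, 10 of the 13 bright probe sets and 0 of the 6 dim ones were called, where 6.73% of all probe sets were. For high against low Myc, 1 of the 13 was called, that of GLDC, where 1.04% of all probe sets were.

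**Figure D2:**
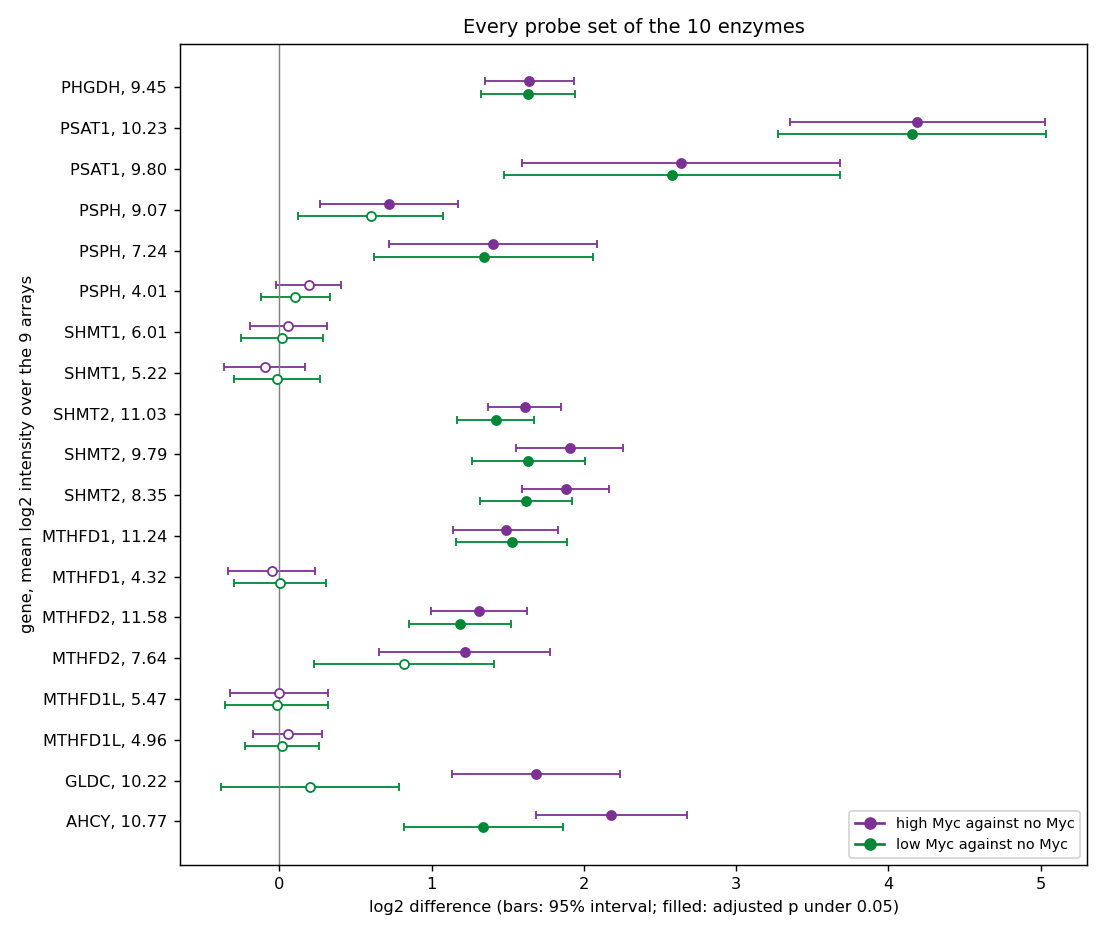
Log2 difference from no Myc for all 19 probe sets, high Myc above low Myc in each row, with 95% limma intervals, labelled by gene and by mean log2 intensity over the 9 arrays; filled points have an adjusted p under 0.05 over all probe sets. Probe sets with a mean of 7.24 or more lie to the right of 0, and the 6 with a mean of 6.01 or less lie around it.

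GLDC, the glycine decarboxylase of the mitochondrial glycine cleavage system, was higher in high Myc cells than in both other groups. It read 2290, 1957, 2171 and 2299 in high Myc cells, 945, 547 and 909 in low Myc cells, and 545 and 839 in no Myc cells. The high Myc arrays stood above all 5 others, and low Myc and no Myc overlapped. High Myc exceeded no Myc 3.22-fold (1.69 ± 0.24, adjusted p = 0.00109) and low Myc 2.80-fold (1.48 ± 0.21, adjusted p = 0.00973, rank 118). Low Myc minus no Myc was 0.20 ± 0.25 (95% interval -0.37 to 0.78, adjusted p = 0.751). The high against low Myc call held when any 1 array was left out, with adjusted p up to 0.0393. With the replicate number as a block the call was lost (difference 1.46, adjusted p = 0.086). Within the 6 arrays of higher median the high minus low Myc difference was 1.31, and within the 3 of lower median it was 1.91. The 100 bases before the GLDC start (GRCh38.p14, chr9:6645730-6645829, minus strand) are given because its call between high and low Myc held without any 1 array. They hold neither motif searched below.
GLDC: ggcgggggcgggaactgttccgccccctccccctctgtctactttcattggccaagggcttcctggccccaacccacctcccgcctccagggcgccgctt

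AHCY, which hydrolyses the S-adenosylhomocysteine left by methylation reactions, was graded across the groups. It read 3352, 3097, 2636 and 2873 in high Myc cells, 1822, 2132 and 1182 in low Myc cells, and 606 and 711 in no Myc cells. No group overlapped another. High Myc exceeded no Myc 4.54-fold (2.18 ± 0.22, adjusted p = 0.000242), and low Myc exceeded no Myc 2.53-fold (1.34 ± 0.23, adjusted p = 0.00362). High Myc exceeded low Myc 1.79-fold (0.84 ± 0.19, adjusted p = 0.0491), and this call held in 1 of the 9 fits that left out an array, the one without low Myc replicate 2, with adjusted p up to 0.123 in the others. The difference was 1.08 within the arrays of higher median and 0.42 within the arrays of lower median. It was 0.60 without low Myc replicate 3.

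Counting arrays rather than tests, 8 enzymes had every high Myc array above every no Myc array, where 20.6% of all genes did. For low Myc over no Myc it was 7 enzymes, where 20.0% of all genes did. For high over low Myc it was 3, GLDC, AHCY and SHMT2, where 8.06% of all genes did.

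**Figure D3:**
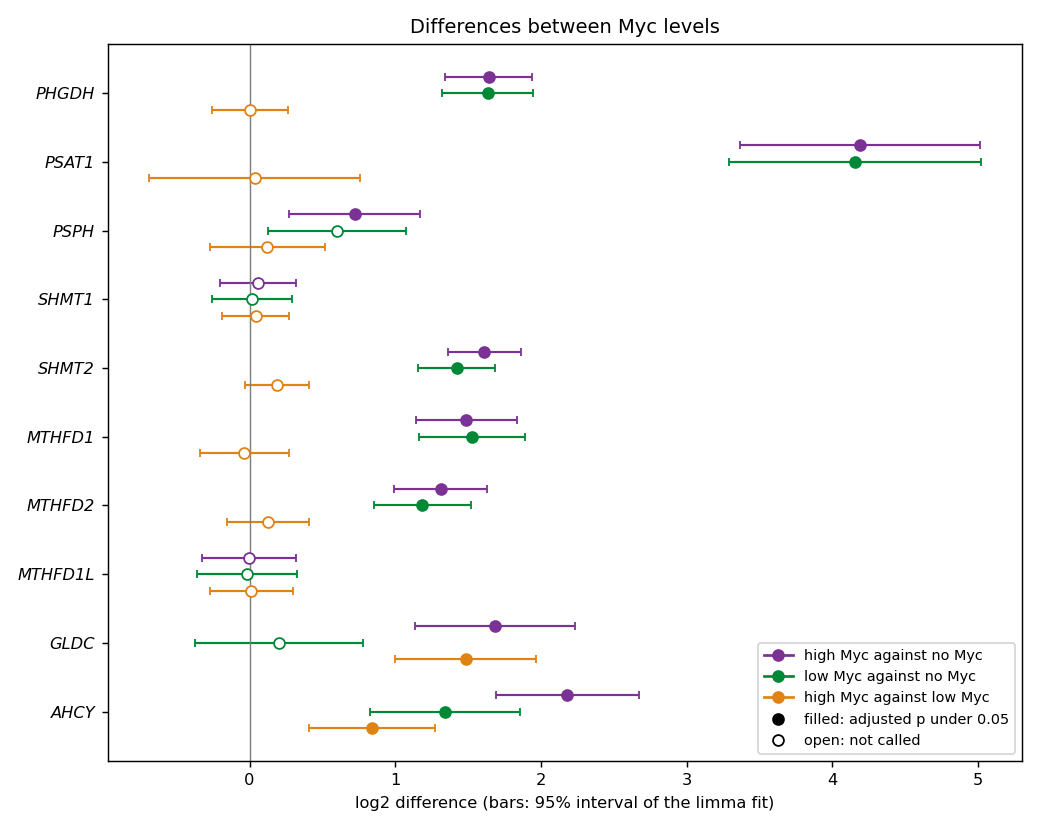
Log2 difference of each enzyme for high Myc against no Myc, low Myc against no Myc and high Myc against low Myc, with 95% limma intervals and filled points where the adjusted p is under 0.05. PSAT1 has the greatest differences from no Myc, GLDC and AHCY alone are filled for high against low Myc, and the SHMT1 and MTHFD1L intervals span 0.

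Of the partners of GLDC in glycine cleavage, GCSH and DLD rose and AMT fell against no Myc. GCSH, the lipoyl carrier protein, rose 10.6-fold in high Myc cells (3.40 ± 0.31, adjusted p = 0.00018) and 5.21-fold in low Myc cells (2.38 ± 0.33, adjusted p = 0.00153) against no Myc. DLD, the dihydrolipoamide dehydrogenase shared with other complexes, rose by 0.91 ± 0.17 in high Myc cells (adjusted p = 0.00455) and by 0.95 in low Myc cells. AMT, the aminomethyltransferase, fell by 0.60 on the log2 scale in high Myc cells (adjusted p = 0.00826) and by 0.56 in low Myc cells (adjusted p = 0.0184). Both AMT calls were lost without no Myc replicate 2 (adjusted p = 0.0919 and 0.148). None of these 3 passed between high and low Myc (GCSH differed by 1.02), where 2.33% of all genes rose and 1.27% fell.

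Another 15 measured genes were listed for folate and pterin enzymes and folate transport. Of these, 10 rose and 0 fell in high Myc against no Myc (median 0.77). In low Myc against no Myc 7 rose and 0 fell (median 0.50), and 1 rose in high against low Myc. Over all 19775 genes, the shares that rose were 14.2%, 11.3% and 2.33% in these comparisons, and 1779, 1691 and 252 genes fell. SLC19A1, the reduced folate carrier, rose 4.26-fold against no Myc in high Myc cells (2.09 ± 0.20, adjusted p = 0.000215) and by 1.74 ± 0.21 on the log2 scale in low Myc cells. GGH, which trims folate polyglutamates, rose 3.99-fold in low Myc against no Myc (adjusted p = 0.000459). MTFMT, the mitochondrial formyltransferase that formylates charged initiator tRNA, rose by 1.79 ± 0.19 in high Myc and 1.21 ± 0.20 in low Myc cells. QDPR, the dihydropteridine reductase and so a pterin enzyme, rose by 1.96 ± 0.13 in high Myc against no Myc (adjusted p = 8.83e-05). It was the only gene of the list called between high and low Myc (1.22 ± 0.11, adjusted p = 0.00158). MTHFD2L, a mitochondrial relative of MTHFD2, differed by 2.29 ± 0.45 in high Myc and by 1.63 in low Myc cells, but the median of its probe sets gave 0.39 (adjusted p = 0.111) and 0.30 (adjusted p = 0.299). When no Myc replicate 1 was dropped, the list median in low Myc against no Myc was 0.41. That fit keeps a lone no Myc array, and it called fewer of the list and fewer of all genes.

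Both measured enzymes of purine synthesis that consume formyl-folate were called higher in high and in low Myc cells against no Myc. Of all genes, 14.2% and 11.3% rose in these comparisons. ATIC rose by 1.52 ± 0.19 in high Myc and by 1.39 in low Myc cells against no Myc. GART rose by 1.23 ± 0.17 in high Myc cells and by 0.91 in low Myc cells, with an adjusted p of 0.0617 in low Myc cells once the library labelled no Myc replicate 1 was left out. With the median of its probe sets GART gave 1.02 (adjusted p = 0.0504) and 0.64 (adjusted p = 0.283).

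In the methionine cycle and transsulfuration around AHCY, 5 of 12 genes rose in high Myc against no Myc, 3 in low Myc against no Myc and 2 in high against low Myc, and 0 fell in any, with medians of 0.33, 0.32 and 0.10. The shares of all genes that rose were 14.2%, 11.3% and 2.33%. CBS, which condenses homocysteine with serine, rose 6.52-fold in high Myc cells (2.71 ± 0.46, adjusted p = 0.00261) and by 2.55 ± 0.49 in low Myc cells (adjusted p = 0.00623, but 0.0689 once the library labelled no Myc replicate 1 was left out). MTAP, which salvages methylthioadenosine, rose by 1.80 ± 0.27 and ADK, which removes adenosine, by 1.49 ± 0.16 in high Myc against no Myc. These were also the 2 called between high and low Myc, by 1.14 and 0.70, in 2 and 4 of the 9 fits that left out an array. MAT2A, which makes S-adenosylmethionine, rose by 1.03 ± 0.21 in high Myc cells (adjusted p = 0.0597 without no Myc replicate 2), and AHCYL1, an AHCY-like protein, by 0.48 in high Myc and 0.65 in low Myc cells. The AHCYL1 call in low Myc against no Myc held in 6 of the 9 fits that left out an array. Without no Myc replicate 2 the list median was 0.31 in high Myc against no Myc. Without the library labelled no Myc replicate 1 it was 0.34 in low Myc against no Myc. Fewer of the list, and fewer of all genes, were called in these fits, which keep a lone no Myc array.

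Among 8 genes of serine and glycine transport and breakdown, 2 rose and 1 fell in high Myc against no Myc, 3 rose in low Myc against no Myc and 1 fell in high against low Myc, with medians of 0.02, 0.21 and -0.09. Of all genes, 14.2% rose and 1779 of 19775 fell in high Myc against no Myc, 11.3% rose in low Myc against no Myc, and 1.27% fell in high against low Myc. SDS and SDSL were not analysed here. SFXN1, the mitochondrial serine carrier, rose 3.04-fold in high Myc cells (1.61 ± 0.24, adjusted p = 0.00129) and by 1.54 in low Myc cells. SLC1A5, a neutral amino acid transporter, rose 2.71-fold in high Myc cells (1.44 ± 0.20, adjusted p = 0.000877) and by 1.41 in low Myc cells. SLC1A4, a serine transporter, rose by 0.58 in low Myc cells, a call held in 2 of the 9 fits that left out an array. SRR, serine racemase, was the gene called lower in high Myc cells, by 0.45 on the log2 scale against no Myc and by 0.69 against low Myc. These calls held in 5 and 8 of the 9 fits that left out an array. Both signs turned when the median of its probe sets was used (0.71, adjusted p = 0.00133, and 0.11, adjusted p = 0.738). The direction for SRR therefore depends on the probe sets read.

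In glutathione synthesis, which uses glycine, 1 of 3 genes rose in high Myc against no Myc. In low Myc against no Myc 1 rose and 1 fell, and in high against low Myc 1 rose. Of all genes, 14.2%, 11.3% and 2.33% rose in these comparisons, and 8.55% fell in low Myc against no Myc. GCLM, the modifier subunit of the first enzyme, rose 3.89-fold in high Myc cells (1.96 ± 0.26) and by 1.76 in low Myc cells, the last being 0.97 with the median of its probe sets (adjusted p = 0.0764). GCLC, its catalytic subunit, exceeded low Myc by 0.91 ± 0.16 in high Myc cells (adjusted p = 0.0191), a call lost without high Myc replicate 1 or 3. It fell by 0.68 in low Myc against no Myc, held in 4 of the 9 fits that left out an array.

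**Figure D4:**
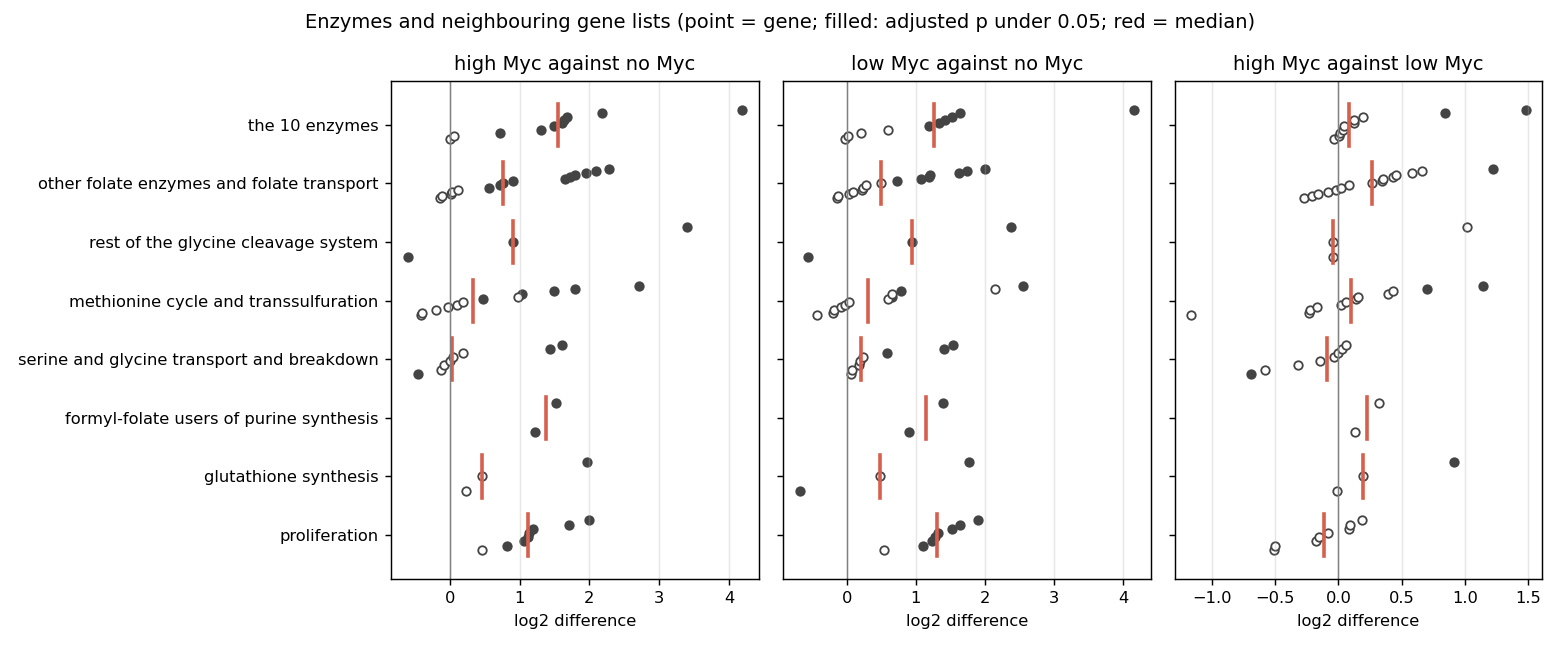
Log2 difference of every measured gene in the 10 enzymes and 7 neighbouring lists, 1 panel per comparison, filled where the adjusted p is under 0.05 and with the list median in red. The 10 enzymes have a median of 1.55 in high Myc and 1.26 in low Myc against no Myc and 0.08 between high and low Myc, and the medians of the other lists lie between 0.02 and 1.37 in high Myc against no Myc.

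ATF4 followed the no Myc split without a high to low Myc step. It read 3053, 3615, 3001 and 2855 in high Myc cells, 3526, 3040 and 2830 in low Myc cells, and 2047 and 1591 in no Myc cells. Both groups differed from no Myc by 0.79 ± 0.15 (adjusted p = 0.00408 for high Myc and 0.00706 for low Myc), and the low Myc call was lost without no Myc replicate 2 (0.61, adjusted p = 0.0634). MYC, by contrast, exceeded low Myc by 2.70 ± 0.53 in high Myc cells (adjusted p = 0.0321). Every high Myc array read above every low Myc array. The call held in 4 of the 9 fits that left out an array, with adjusted p up to 0.0988. The fit shares 1 estimate of spread over the 3 groups, and the no Myc arrays had a MYC SD of 1.95 on the log2 scale.

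RefSeq promoters, 250 bases before to 50 after a start (GRCh38.p14), were matched for 8 of the 10 enzymes, PSPH and SHMT2 being without an entry, and were searched on both strands for the MYC E-box CACGTG and for TGATGNAA, a core read by ATF4 with C/EBP partners. Of 35116 promoters, 7.26% hold the first and 3.62% the other. MTHFD1 holds 1 E-box 15 bases before its start (chr14:64388253-64388352, plus strand), and MTHFD1L holds 1 E-box and 1 TGATGNAA in 3 overlapping promoters, at places that do not overlap (E-box within chr6:150866320-150866349, plus strand). The other 6 held neither in these windows. The capitals below mark the E-box, and the pair is shown because MTHFD1 rose and MTHFD1L did not pass the test. MTHFD1L was read only by dim probe sets, so it is not shown to be a gene that stayed unchanged.
MTHFD1: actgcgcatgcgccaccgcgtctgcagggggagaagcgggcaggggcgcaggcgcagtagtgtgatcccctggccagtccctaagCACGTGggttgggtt
MTHFD1L: cacgcccggctcCACGTGcgcagccggccg

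The genes most like the mean profile of the 10 enzymes over the 9 arrays, by Pearson's r, were PBK (0.995), EXOSC2 (0.994), IARS1 (0.994), LRPPRC (0.993) and STOML2 (0.993). These correlations describe 9 arrays that share the same split between no Myc and the rest.

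Other features moved with the same split. Of 8 proliferation genes, 7 rose in high Myc and 7 in low Myc against no Myc (medians 1.12 and 1.30), where 14.2% and 11.3% of all genes rose, and 0 changed between high and low Myc. Without the library labelled no Myc replicate 1 the medians against no Myc were 0.94 in high Myc and 1.26 in low Myc cells. Fewer of the proliferation list, and fewer of all genes, were called without it. The summed intensity of the proliferation genes was 16917 to 22752 in high Myc, 18953 to 26104 in low Myc and 8442 to 9868 in no Myc cells. The B-cell identity genes summed to 22497 to 28776 in high Myc, 25043 to 29637 in low Myc and 44703 to 54151 in no Myc cells, with 8, 6 and 1 of 10 lower in high against no Myc, low against no Myc and high against low Myc, where 1779, 1691 and 252 of all 19775 genes were. Without the library labelled no Myc replicate 1 the B-cell list median was -0.85 in high Myc and -0.78 in low Myc against no Myc. Fewer of the list, and fewer of all genes, were called in that fit, which keeps a lone no Myc array. Myeloid markers summed to 380 to 445 in high Myc, 348 to 398 in low Myc and 1636 to 2476 in no Myc cells; 2 of 8, LYZ and ITGAM, fell against no Myc in both comparisons, whereas CD14 (35.0 to 49.6) and CSF1R (36.2 to 57.5) stayed dim on all arrays. T and NK cell, erythroid and platelet, and fibroblast and epithelial markers gave 1, 0 and 0 genes lower in high Myc against no Myc and 0 in the other comparisons, the 1 being CD2, held in 3 of the 9 fits that left out an array. The 3' minus 5' log2 difference of GAPDH lay at 0.25 and 0.42 for no Myc and between 0.01 and 0.24 for the other arrays, while that of ACTB was 0.00 and -0.01 for no Myc and -0.07 to 0.19 for the others. The part of proliferation, cell state or RNA quality in the enzyme differences was not tested.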

How the data were processed

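The authors deposited 1 value per probe set and array as intensity on a linear scale, summarised by RMA per the submitters' processing notes; no version or genome build is given in the sources used here. The method corrects background and is meant to equalise array distributions, so differences are relative to the other genes and a change in total RNA per cell cannot be seen. The deposited distributions were not fully equal. Their log2 90th percentile ran from 8.93 (low Myc replicate 3) to 9.31 (high Myc replicate 2). Log2 of the deposited intensity was used. Of 54675 probe sets, 41097 had 1 symbol, 1801 several and 11777 none. Through Entrez identifiers, 41043 symbols were updated or kept. Left out were 5 probe sets that join an enzyme (SHMT1, MTHFD1L or PHGDH) with other symbols. The probe set with the highest mean over the 9 arrays represented a gene, and probe sets were set against each other only as within-array ratios. Groups came from the labels. The limma package 3.58.1 (R 4.3.3) fitted group means on all 9 arrays (eBayes without trend, 6 residual degrees of freedom), two-sided, Benjamini-Hochberg adjusted over 19775 genes, called under 0.05. Differences are given ± SE. The genes named were the 10 enzymes, MYC and ATF4, the called members of each list with the largest differences, up to 4 a comparison, and the 5 genes of most similar pattern. Exceptions made after the values were seen were the B-cell and proliferation lists, given as counts, and CD14 and CSF1R, named as defining myeloid markers. Ratios were compared by exact permutation with Python 3.11.15. Code was tested on simulated data. The enzymes and lists were chosen with earlier results of these data known. The number of arrays limits the precision.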

Additional observations from a re-analysis of the deposited data

Results flagged for a closer look

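PHGDH in high Myc replicate 4 read 9.96 on the log2 scale (intensity 993), while the other 3 high Myc arrays lay between 9.76 and 9.78. Its gap to the nearest array was 0.93 of the group's range. The threshold for such a gap is passed by chance in about 1 in 20 groups of this size. All 4 arrays stood above both no Myc arrays.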

How the results depend on the processing

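The number of enzymes called higher was 7 or 8 for high Myc against no Myc and 6 or 7 for low Myc against no Myc under all alternatives run. For high against low Myc it was 2, and 1 with arrays centred on their median, with the median of probe sets, with all probe sets as rows, with the 2 groups alone, at an adjusted p under 0.01, with the sets of lower (3) and higher (6) array median as a block, and within the larger set. The last 2 were added after seeing the data. Leaving out 1 array gave 1 to 2. With the replicate number as a block it was 0. The labels do not say whether the numbers pair the arrays. Same-numbered arrays deviated together with r from -0.31 to 0.47, and differently numbered ones with r from -0.47 to 0.44. The 2 no Myc arrays deviate in opposite ways by construction, so these r cannot settle the pairing. Under the block GLDC differed by 1.46 (adjusted p = 0.086) and AHCY by 0.86 (adjusted p = 0.0676). With the median of probe sets the SHMT2 to SHMT1 ratio differed by 1.92 for high Myc against no Myc, and the MTHFD2 to MTHFD1 ratio by 0.55 for high Myc and 0.24 for low Myc against no Myc, where the brightest probe sets gave -0.18 and -0.34; SRR gave 0.71 and 0.11. The cause was not tested. Over all genes, calls numbered 4584 for high Myc against no Myc (2714 without the library labelled no Myc replicate 1, 3048 at 0.01), 3919 for low Myc against no Myc (1855 and 2188). Between high and low Myc there were 712 (143 at 0.01, 154 with the block, 1684 with array weights). Without 1 no Myc array, the lone array is assumed to vary like the others.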
